A study of Mus musculus with 8 samples.

Results

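Regulators of G protein signalling (RGS) switch off the signals of chemokine receptors and other G protein-coupled receptors. A receptor that binds its chemokine makes a G protein alpha subunit take up GTP, and an RGS protein speeds the hydrolysis of that GTP, so the alpha subunit returns to its resting state sooner. In B cells this sets how strongly and for how long a cell moves toward a chemokine in the follicle or the germinal centre. The 9 genes described here, Rgs1, Rgs2, Rgs3, Rgs13, Rgs16, Rgs18, Rgs10, Rgs14 and Rgs19, are RGS genes known from lymphocytes and other blood cells, and they stand among 11802 genes that could be tested on the same arrays. They were selected on family membership and expression in lymphocytes, with their differences between Irf4 null and wild type already known. Those differences are therefore given as a description, and nothing rests on their being called.

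RNA came from B cells of the spleens of 12-week-old C57BL/6 mice of 2 genotypes, irf4-/- (Irf4 null, 4 arrays) and their irf4+/+ littermates (wild type, 4 arrays), with no treatment. Irf4 is a transcription factor that B cells need to become plasma cells, and the labels give the genotype for the mouse, so any other cells in a null preparation carry it too. Non-B cells were depleted with magnetic beads, and each sample was hybridised to 1 Affymetrix mouse array, whose values are MAS5 signals on a linear scale. Whether the 4 arrays of a genotype stand for 4 mice is not in the labels, so SEs and p-values cover only the spread between these RNA samples, part of which may be technical.

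On the brighter Irf4 probe set wild-type arrays read 1720 to 2341 and null arrays 244 to 315. Of 8 B cell markers, 7 were tested, and their summed signal was 66389 to 77954 in wild type and 68243 to 74844 on null arrays; none was called (limma; 0 had an unadjusted p below 0.05). Markers of B cell subsets did move with genotype, on the same arrays as Rgs3 and Rgs13: of 7 marginal zone markers 5 were called higher (limma; summed signal 20079 to 24481 in wild type, 38306 to 44385 in the null), of 5 tested plasma cell markers 3 lower (14912 to 38930, then 8451 to 9894), and of 4 tested follicular markers 1 lower (25660 to 30818, then 16278 to 23921). None of these 3 sums overlapped between genotypes, and their part in the RGS differences was not tested. The arrays also fall apart by Xist, the RNA of the inactive X chromosome: wild-type arrays 1, 3 and 4 and null array 1 read 17119 to 19652 (Xist-high), and wild-type array 2 and null arrays 2, 3 and 4 read 49.2 to 94.8 (Xist-low). The mean log2 level of 49 tested of 58 listed markers of platelets, neutrophils, monocytes, T cells, NK cells, erythroid and dendritic cells was 7.96 to 8.47 on the 4 Xist-high and 9.02 to 9.68 on the 4 Xist-low arrays, so this split and that mean level cannot be told apart. By genotype the mean level was 7.96 to 9.37 in wild type and 8.47 to 9.68 in Irf4 null. Taken by cell type, the summed signals of neutrophil, monocyte, T cell, NK cell and dendritic cell markers did not overlap between Xist-high and Xist-low arrays. Those of platelet markers (3386 to 7376 on Xist-high, 4427 to 6023 on Xist-low arrays) and of erythroid markers (1113 to 2414 and 857 to 11874) did overlap. The sum of the B cell markers was also apart by this split, and lower on Xist-low arrays (66389 to 71094, against 72412 to 77954 on Xist-high arrays). In RNA of whole preparations, fewer cells of a type and less RNA per cell cannot be told apart either.

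In these preparations 2 of the 9 genes stood out between the genotypes. Rgs13, which is known from germinal centre B cells, was lower in Irf4 null, with a difference of -2.12 ± 0.25 on the log2(signal + 16) scale, and Rgs3 was higher, with a difference of 1.04 ± 0.10 (SE of the limma fit, n = 4 and 4). The other 7 lay between -0.23 and 0.70 on this scale, and their genotypes overlapped. At an adjusted p below 0.05 over all probe sets 1 member was called higher, 1 lower and 7 neither, while 4.37% of all 11802 genes were called, 2.67% higher and 1.7% lower. Wild-type and null signals did not overlap for the same 2 genes, as for 12.8% of all genes. Of the 16 tested probe sets of the members 3 were called and did not overlap, 1 of Rgs13 and 2 of Rgs3, where 3.52% of all probe sets were called and 10.8% did not overlap. The median log2 difference of the 9 was -0.010, against 0.025 over all genes.

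Only the promoters of these 2 genes are shown, because they are the members whose RNA differed most between preparations with and without Irf4. IRF proteins bind DNA at sites built around the core GAAA. Each line gives the 250 bases before an annotated start site in RefSeq (GRCm38.p6), 5′ to 3′ on the gene's own strand, with each GAAA, or TTTC where the core lies on the other strand, in capitals. Rgs13 lies on the minus strand at chr1:144177373-144177622, and the Rgs3 start sites on the plus strand at chr4:62559597-62559846 and chr4:62619422-62619671.
Rgs13: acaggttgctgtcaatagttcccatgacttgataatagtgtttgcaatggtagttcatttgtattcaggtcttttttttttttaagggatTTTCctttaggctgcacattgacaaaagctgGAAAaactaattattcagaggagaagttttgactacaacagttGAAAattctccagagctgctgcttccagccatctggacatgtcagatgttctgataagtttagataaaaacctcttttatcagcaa
Rgs3, upstream start: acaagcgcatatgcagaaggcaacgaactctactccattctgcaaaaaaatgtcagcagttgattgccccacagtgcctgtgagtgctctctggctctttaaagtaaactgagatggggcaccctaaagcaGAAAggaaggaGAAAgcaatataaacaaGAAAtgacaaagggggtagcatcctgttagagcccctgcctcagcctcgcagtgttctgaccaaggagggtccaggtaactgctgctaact
Rgs3, downstream start: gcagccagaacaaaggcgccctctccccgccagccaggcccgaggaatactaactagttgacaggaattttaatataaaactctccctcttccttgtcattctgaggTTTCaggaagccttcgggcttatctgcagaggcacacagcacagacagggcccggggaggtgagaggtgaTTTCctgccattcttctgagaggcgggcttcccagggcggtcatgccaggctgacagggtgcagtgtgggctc

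Rgs13 and the upstream Rgs3 start each hold 3 GAAA cores and the downstream Rgs3 start holds 2, where the median of all 32851 promoter windows is 2 and 86.4% hold at least 1. A single core is therefore common. None of the 3 windows holds a GAAANNGAAA repeat (2.98% of all windows), a GGAANNGAAA composite of an Ets and an IRF core (2.3%) or the AP-1 sequence TGANTCA (6.75%), searched on both strands, where the first and second patterns can overlap in their GAAA part. The same holds for all 9 windows of the 6 members that have one, Rgs2, Rgs3, Rgs13, Rgs16, Rgs10 and Rgs19. This says only that these letters are not in these windows. The Rgs13 window has 36.0% G and C and the Rgs3 windows 48.4% and 56.8%, against a median of 52.4% over all windows. Of the members not called, Rgs19 has windows with 4, 0 and 1 GAAA cores. Those of Rgs2, Rgs16 and Rgs10 hold 0.

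**Figure D1:**
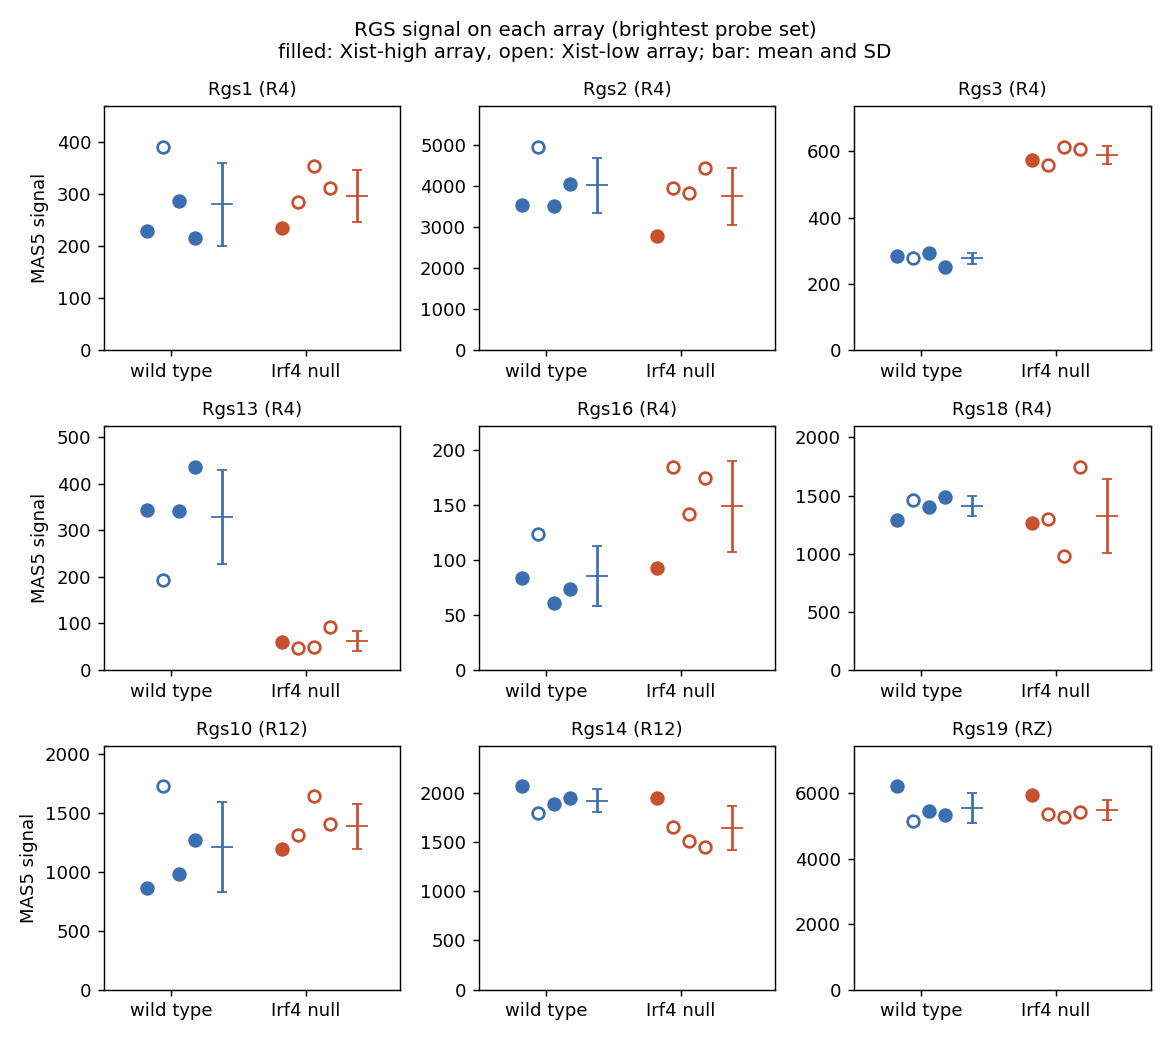
MAS5 signal (y axis, linear from 0) of the brightest probe set of each RGS gene on the 4 wild-type (blue) and 4 Irf4 null (red) arrays, with bars for mean and SD; filled points are Xist-high and open points Xist-low arrays. The genotypes are apart for Rgs3 (252.6 to 293.7 against 558.3 to 612.8) and Rgs13 (193.6 to 436.5 against 47.4 to 92.0), and overlap for the other 7.

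The R4 subfamily, small RGS proteins made of little more than the RGS domain apart from the longer forms of Rgs3, holds 6 of the 9 genes. Rgs13 is known to restrain the response of germinal centre B cells to CXCL12 and CXCL13. Its only probe set gave 344, 194, 341 and 436 on wild-type arrays 1 to 4 and 59.5, 47.4, 49.9 and 92.0 on the null arrays, means of 329 ± 100.4 and 62.2 ± 20.6 (SD, n = 4 each). Every null array lay below every wild-type array, by 4.35-fold on average on the log2(signal + 16) scale. The null values were near the cutoff below which dim probe sets were left out of the test (a signal of 42.9), so the size of the fold is uncertain. The lowest wild-type value was that of array 2, the Xist-low one. Within the Xist-low arrays the difference was -1.45 and was not called; there the wild type is that 1 array, which is assumed to vary like the others. Within the Xist-high arrays, where the null is 1 array, it was -2.36, and in a fit with an Xist-high term -1.91 ± 0.27. Left out in turn, no single array ended the call.

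Germinal centre markers did not all go with Rgs13. Of 7 listed, 6 were tested and 1 was called, the germinal centre repressor gene Bcl6, with a log2 difference of -0.78 ± 0.07 (limma, adjusted p = 0.00028). The median over the 6 was -0.49, and 3 of them had an unadjusted p below 0.05 (limma). The summed signal of the 6 was 5032 to 7325 in wild type and 3552 to 6820 on null arrays, overlapping ranges. Mybl1, a transcription factor of germinal centre cells, read 78.6, 275, 86.6 and 88.1 in wild type and 33.9 to 48.5 on null arrays (-1.17, limma, adjusted p = 0.0916). With the Xist-high term Mybl1 was at -1.53 and passed (limma, adjusted p = 0.0361). In that fit 2 of the 6 markers were called lower and 0 higher. The receptor S1pr2, which keeps cells in the germinal centre, read 66.9 to 146 and 54.3 to 70.9, and the genotypes of the signalling protein gene Gcsam overlapped, at -0.062. The death receptor gene Fas was at -0.41 (limma, adjusted p = 0.598). The proliferation marker Mki67 stood on the other side of 0, at 0.78 (limma, adjusted p = 0.377), and with Bcl6 it makes up most of the summed signal. Wild-type array 2, lowest for Rgs13 among wild type, was the highest wild-type array for Mybl1, S1pr2, Gcsam and Mki67. It was not the highest for Bcl6 (3604, against 3754 and 3948 on arrays 1 and 4) or Fas (299, against 305 on array 4). The part of germinal centre cells in the Rgs13 difference was not tested.

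Rgs3 can act on both the inhibitory and the Gq class of alpha subunits, and its gene makes several protein forms. Its brightest probe set gave 284, 277, 294 and 253 in wild type and 572, 558, 613 and 608 on null arrays, means of 277.0 ± 17.6 and 588 ± 26.7 (SD), a 2.06-fold difference. The arrays of each genotype lay within a narrow band, and the Xist-low wild-type array stood among the other wild-type arrays. A second probe set gave 113, 165, 149 and 133 against 248, 204, 332 and 254, again without overlap, with a log2 difference of 0.81 ± 0.17, and it was also called. The 2 dimmer probe sets differed by 0.49 ± 0.27 and 1.19 ± 0.38, but their genotypes overlapped and neither was called. The fourth read 8.89, 60.4, 9.21 and 32.9 in wild type and 57.1 to 116 on null arrays. Its wild-type mean of 27.9 lay below the cutoff signal of 42.9. It was therefore tested only through its null values, and its direction adds no support. Those 2 were apart by the Xist split. The third read 31.9 to 79.3 on Xist-high and 83.3 to 108 on Xist-low arrays. The fourth read 8.89 to 57.1 and 57.9 to 116, hardly apart. The sources do not say which form of the gene each probe set measures.

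The difference of the brightest Rgs3 probe set changed little with how the Xist split was handled. It was 1.03 ± 0.12 with the Xist-high term, 1.01 within Xist-high, 1.05 within Xist-low arrays, where it was not called, and 1.03 with the level of the 49 other-cell markers as a covariate. No single array left out ended its call.

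**Figure D2:**
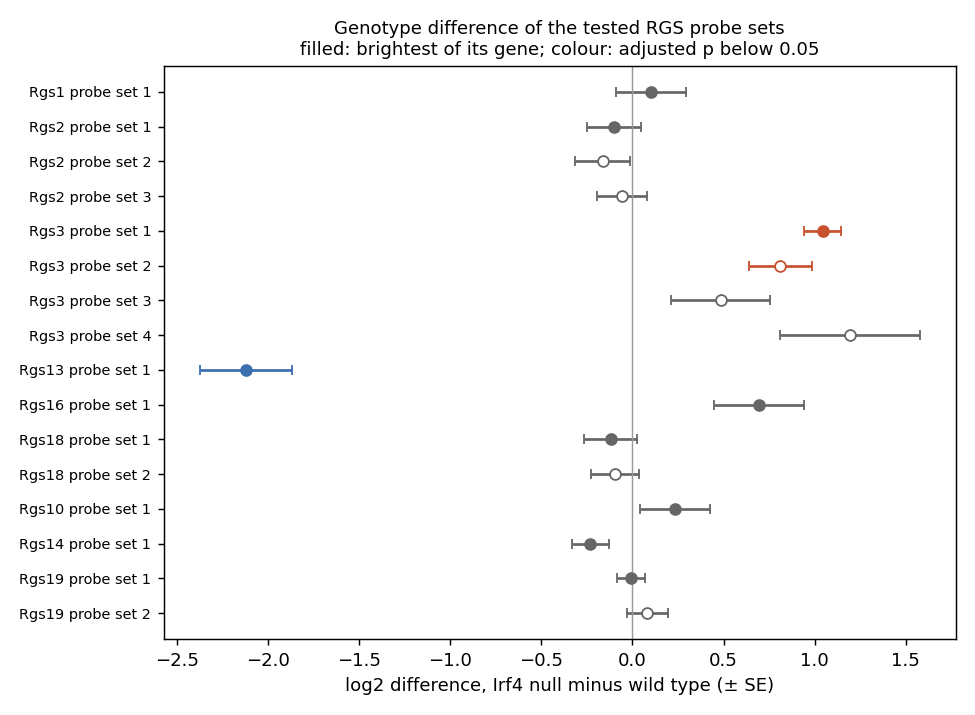
Log2 difference, Irf4 null minus wild type (x axis), with its SE for the 16 tested RGS probe sets; filled points are the brightest of each gene and colour marks an adjusted p below 0.05. Only 3 probe sets are coloured, Rgs13 at -2.12 and Rgs3 at 1.04 and 0.81. All 4 Rgs3 probe sets lie above 0, of which the dimmest, at 1.19, passed the filter only through its null values.

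Rgs1 and Rgs2 are R4 genes that immune cells switch on quickly after stimulation, Rgs1 acting mainly on inhibitory alpha subunits and Rgs2 on Gq. Rgs1 read 229, 390, 286 and 215 in wild type and 234, 285, 354 and 312 on null arrays, a log2 difference of 0.099 ± 0.192 (SE). The genotypes overlapped throughout, and the 4 Xist-low arrays (285 to 390) lay above the Xist-high arrays (215 to 286) except for a narrow overlap. For Rgs2 the brightest probe set gave 3551, 4963, 3516 and 4062 against 2797, 3971, 3843 and 4448, a difference of -0.10 ± 0.15. With the Xist-high term the genotype difference of this probe set was -0.34 ± 0.09, larger but not called (limma, adjusted p = 0.0884). Without that term the other tested Rgs2 probe sets gave -0.16 and -0.057, and a dim one, at 12.0 to 71.8, was left out of the test. Null array 1, the Xist-high one, was the lowest of all 8 on each of the 3 tested Rgs2 probe sets.

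Rgs16, an R4 gene that acts on inhibitory and Gq alpha subunits, had 3 probe sets, of which only 1 was bright enough to be tested. It read 83.4, 124, 61.0 and 73.3 in wild type and 92.8, 185, 142 and 175 on null arrays, a log2 difference of 0.70 ± 0.25 that was not called. All 4 Xist-low arrays (124 to 185) lay above all 4 Xist-high arrays (61.0 to 92.8). With the Xist-high term the difference was 0.34 ± 0.20. The dim probe sets read 4.04 to 41.1 and 1.57 to 7.33 over the 8 arrays.

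Rgs18 is known from megakaryocytes and platelets, where it restrains platelet activation. Its brighter probe set gave 1289, 1462, 1405 and 1489 in wild type and 1266, 1299, 977 and 1749 on null arrays, a difference of -0.12 ± 0.15, and the dimmer one gave -0.094 ± 0.133. The null values spread wider and enclosed the wild-type values. Platelet and megakaryocyte markers, all 10 of them tested, summed to 3386 to 4427 in wild type and 4861 to 7376 on null arrays, without overlap. Of these 2 were called, the platelet chemokine gene Ppbp, higher by 0.81 (adjusted p = 0.0415), and the platelet receptor gene Clec1b, higher by 0.60 (adjusted p = 0.0368), with a median of 0.37 over the 10. Null array 1 had the highest marker sum, and its Rgs18 signal was 1266 on the brighter probe set, below the wild-type range, and 682 on the dimmer one, within the wild-type range of 641 to 776. The part of platelets in the Rgs18 signal was not tested.

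The R12 subfamily is represented by Rgs10, a short protein that acts on inhibitory alpha subunits, and Rgs14, a longer one that also binds inactive alpha subunits and small GTPases. Rgs10 read 860, 1726, 985 and 1270 in wild type and 1189, 1311, 1642 and 1403 on null arrays, a log2 difference of 0.23 ± 0.19. Rgs14 read 2065, 1790, 1880 and 1941 in wild type and 1949, 1652, 1513 and 1452 on null arrays, a difference of -0.23 ± 0.10. Genotypes overlapped for both, and both were apart by the Xist split, in opposite directions. The Xist-low arrays were the higher ones for Rgs10 (1311 to 1726 against 860 to 1270) and the lower ones for Rgs14 (1452 to 1790 against 1880 to 2065).

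Rgs19, of the RZ subfamily, acts on inhibitory alpha subunits and Gz. It had the smallest difference of the 9. Its brighter probe set gave 6206, 5156, 5456 and 5324 in wild type and 5936, 5350, 5254 and 5415 on null arrays, a log2 difference of -0.010 ± 0.077, and the other gave 0.082 ± 0.113. These are among the smallest SEs of the members, so for Rgs19 a genotype difference as large as that of Rgs3 lies many SEs away.

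The Xist split was not used to choose the genes, and its effect could be tested in a fit with genotype and Xist-high as terms, a split made after the data were seen. Of the 9 members 1 passed, Rgs2, lower on Xist-high arrays, with a log2 difference of -0.48 ± 0.09 (limma, adjusted p = 0.0221, n = 4 and 4), where 3.15% of all genes passed in this fit. Rgs16 at -0.70 ± 0.20 (limma, adjusted p = 0.123), Rgs1 at -0.53 ± 0.16 (limma, adjusted p = 0.141) and Rgs10 at -0.51 ± 0.16 (limma, adjusted p = 0.16) differed by as much or more with wider errors and did not pass. Rgs14 was at 0.23 ± 0.09 (limma, adjusted p = 0.305). Rgs3, Rgs18 and Rgs19 lay between -0.057 and 0.14, and Rgs13 at 0.43 ± 0.27. Signals of Xist-high and Xist-low arrays did not overlap for Rgs16, Rgs10 and Rgs14, 3 of 9 genes, and for 12.2% of all genes. Whether sex, other cells or another property of these arrays carries this was not tested. No member's genotype difference differed between the Xist-high and Xist-low arrays at an adjusted p below 0.05 for the interaction, nor did any of the 27022 probe sets (limma; 0 members and 2038 probe sets had an unadjusted p below 0.05), and each such comparison holds 3 arrays against 1.

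**Figure D3:**
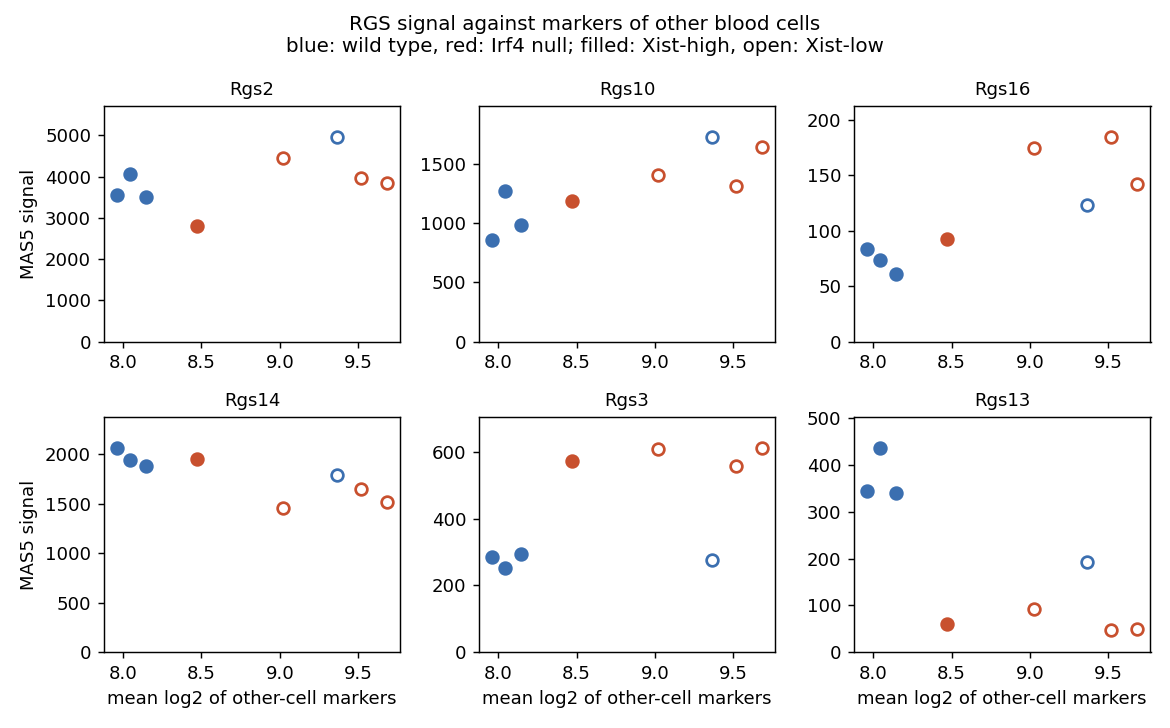
MAS5 signal (y axis, from 0) of 6 RGS genes against the mean log2 level of 49 markers of other blood cells (x axis) on each array; blue is wild type, red Irf4 null, filled Xist-high and open Xist-low. Rgs10 and Rgs16 are higher and Rgs14 lower on the 4 open points at the right, while for Rgs3 the open wild-type point stays at 277 with the other wild-type arrays.

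**Figure D4:**
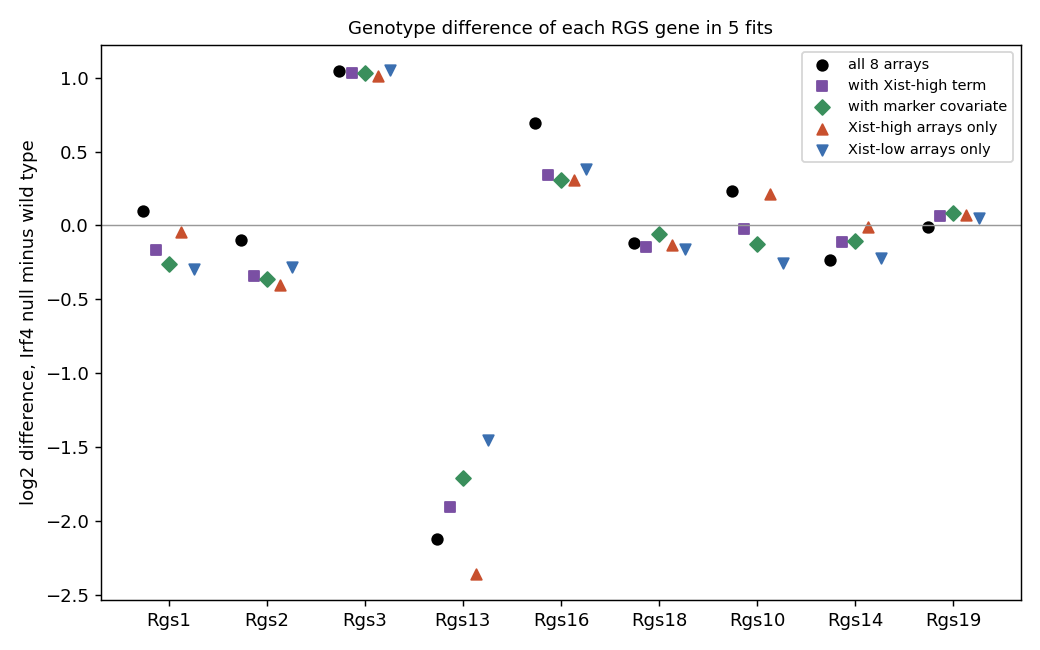
Log2 difference, Irf4 null minus wild type (y axis), of each RGS gene in 5 fits marked by symbol. The Rgs3 values lie between 1.01 and 1.05, the Rgs13 values between -2.36 and -1.45, and those of Rgs1, Rgs10 and Rgs19 lie on both sides of 0.

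Position adds a comparison among the members themselves. Rgs2, Rgs13, Rgs1 and Rgs18 follow each other on chromosome 1 with Rgs21, which no single-gene probe set names here, as the only other protein-coding gene among them. In this order their log2 differences were -0.10, -2.12, 0.099 and -0.12. The gene before Rgs2, the proteasome-linked deubiquitinase gene Uchl5, was at 0.049 ± 0.100 (limma, adjusted p = 0.859), and Brinp3, which follows Rgs18, was too dim to be tested. The neighbours of Rgs13 on either side thus showed no difference near its size. Rgs16 lies elsewhere on chromosome 1 beside Rgs8, which was dim, and Rgs3, Rgs10, Rgs14 and Rgs19 lie on chromosomes 4, 7, 13 and 2.

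The genes whose levels ran most like those of Rgs3 and Rgs13 over the 8 arrays were found by the root mean square difference of their log2 levels, each taken from its own mean. For Rgs3 these were the phosphatase gene Dusp22 (0.086), Dzip1 (0.11) and Dhx58, a regulator of cytosolic RNA sensing (0.13), against a root mean square of 0.53 for Rgs3 itself. Dusp22 read 975 to 1173 in wild type and 2103 to 2577 on null arrays. In the gene order of RefSeq it is the protein-coding gene on one side of Irf4, with Exoc2 on the other. For Rgs13 they were the small GTPase gene Rab30 (0.35), the LIM protein gene Csrp2 (0.36) and Gm11342 (0.39), against 1.12 for Rgs13 itself. Rab30 read 1289, 616, 1088 and 1423 in wild type and 286 to 392 on null arrays, so the wild-type array lowest for Rgs13 was lowest for Rab30 too. The likeness rests largely on the genotype difference that all of these genes share.

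For the other parts of the pathway the counts are to be read against 4.37% of all genes called, 2.67% higher and 1.7% lower. Of 21 further genes with an RGS domain 13 were tested and none was called (limma; 1 had an unadjusted p below 0.05, and the median log2 difference was -0.060). The smallest adjusted p was that of Snx14, a sorting nexin, at 0.26 ± 0.09 (adjusted p = 0.153). Rgs4, Rgs5, Rgs6, Rgs7, Rgs8 and Rgs11 were too dim to be tested.

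Of 29 genes for alpha, beta and gamma subunits of G proteins 24 were tested. Of these 1 was higher, 1 lower and 22 not called, against 4.37% called of all genes, with a median of -0.066. By limma 4 of the 24 had an unadjusted p below 0.05. Gna13, an alpha subunit that holds B cells in place in the germinal centre, read 6438, 6350, 6333 and 6880 in wild type and 5660, 5202, 5037 and 4619 on null arrays, a fall by 0.34 ± 0.07 on the log2 scale (limma, adjusted p = 0.0304). All 7 of its tested probe sets were lower and 5 were called. Gngt2, a gamma subunit, rose by 0.53 ± 0.12 (limma, adjusted p = 0.0359), from 397 to 507 in wild type to 561 to 719 in Irf4 null. Both calls depended on the fit. With the Xist-high term the adjusted p was 0.112 for Gna13 and 0.125 for Gngt2 (limma), and of the 8 fits that leave out 1 array Gna13 passed in 2 (without wild-type array 2 and without null array 1) and Gngt2 in 1 (without wild-type array 2).

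Of 7 receptor kinases and arrestins, which end receptor signalling upstream of the RGS step, 6 were tested and none was called (limma; 2 had an unadjusted p below 0.05; median 0.073). Grk3, a receptor kinase, came nearest, at 1.42 ± 0.35 (limma, adjusted p = 0.0514), and read 367, 1009, 363 and 364 in wild type and 737, 1677, 1227 and 1797 on null arrays. Wild-type array 2 lay above null array 1, and each Xist-low array lay above the Xist-high array or arrays of its genotype. With the Xist-high term Grk3 was at 0.80 and passed (limma, adjusted p = 0.017), as it did without wild-type array 2 or without null array 1.

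Of 26 effectors and regulators of G proteins 24 were tested, 1 was lower and 23 not called, with a median of 0.019. By limma 2 of the 24 had an unadjusted p below 0.05. Pik3cg, the phosphoinositide kinase subunit that beta-gamma subunits activate, fell by 0.52 ± 0.11 (limma, adjusted p = 0.0327), from 886, 932, 1007 and 953 to 610, 617, 820 and 584. Every null array lay below every wild-type array. It did not pass with the Xist-high term (-0.55, limma, adjusted p = 0.0626), and it passed in 2 of the 8 fits that leave out 1 array, those without wild-type array 2 or null array 3.

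Of 16 receptors through which B cells migrate 15 were tested, 3 were higher, 1 lower and 11 not called, against 4.37% called of all genes, with a median of -0.20. By limma 9 of the 15 had an unadjusted p below 0.05, so not called does not mean unchanged. Ackr3, a CXCL12 receptor that does not signal through G proteins, rose by 2.56 (limma, adjusted p = 0.000548) and the sphingosine 1-phosphate receptor gene S1pr3 by 1.27 (limma, adjusted p = 0.00643), each also with any 1 array left out. Cxcr4, the signalling receptor for CXCL12, fell by 0.83 (limma, adjusted p = 0.0361), and the third that rose was Cxcr3, at 1.08 (limma, adjusted p = 0.0468), named after its value was seen. Neither Cxcr4 nor Cxcr3 passed with the Xist-high term (limma, adjusted p = 0.111 and 0.0901), and each passed in 2 of 8 fits that leave out 1 array, for both the one without wild-type array 2, and otherwise without null array 2 for Cxcr4 and null array 1 for Cxcr3.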

How the data were processed

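The authors deposited 1 linear intensity for each probe set on each array. These are MAS5 signals, per the submitters' processing notes, and the version and the target of the scaling are not stated in the labels. Labelling started from 6 µg of total RNA, per the labels' protocols. Of 45101 probe sets the 64 controls were left out. Names came from the platform annotation (34958 probe sets with 1 symbol, 932 with several, 9211 unnamed here), updated by gene identifier to RefSeq of GRCm38.p6 (34754 matched), which also gave promoter sequences and gene order; the sources name no genome build for the arrays. The 9 members have 19 probe sets with 1 symbol.

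Signals were taken as log2(signal + 16), which makes folds of dim probe sets smaller, and the dimmest 40% of probe sets, by their mean over all 8 arrays, were dropped. That left 27022, including 16 of the 19 and at least 1 for each member. No detection calls were used. The test was that of limma 3.58.1 (R 4.3.3; lmFit, eBayes with a trend), with Benjamini-Hochberg adjustment over the 27022 and a threshold of 0.05. A gene is represented by its brightest tested probe set. The number of arrays limits the precision. Simulated data were used to test the fit. Figures used matplotlib 3.10.9.

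Members, lists, alternatives and the Xist split (cut at a signal of 1000) were chosen with earlier results of these data known. Named are all members, up to 3 called genes of each pathway list or the 1 with the smallest adjusted p, the 3 genes most like each called member, chromosome neighbours, and markers of cells tied to Rgs13 or Rgs18. The main fit did not pair the arrays by the replicate numbers of the titles. For numbers 1 to 4 the correlations of same-numbered deviations were 0.24, 0.28, -0.030 and -0.081. Numbers 1 and 2 matched their own number best, and 3 and 4 matched number 1 best, so whether the numbers mark pairs is not settled.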

Additional observations from a re-analysis of the deposited data

Results flagged for a closer look

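One value of the members stood far from the others of its group. On the second-brightest Rgs2 probe set Irf4 null array 1 read 2069, while the other 3 null arrays read 2872 to 2994. On the log2(signal + 16) scale the gap is 0.887 of the range of the group, over Dixon's 95% limit for 4 values. This was 1 of 32 groups examined over the 16 tested probe sets, and chance passes this limit in about 1 group in 20 (0.05). Null array 1 is the Xist-high array of its genotype, and the same array was the lowest of the 8 on the 2 other tested Rgs2 probe sets. Whether this comes from the Xist split was not tested.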

How the results depend on the processing

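Among 20 alternatives (19 where the probe set was dropped), Rgs3 was called in 19 and Rgs13 in 18 of 19, both failing within the Xist-low arrays; their log2 differences ranged over 0.88 to 1.08 and -2.38 to -1.45. No other member was called in any of them. Rgs16 and Rgs14 kept their sign in all (0.30 to 0.88 and -0.32 to -0.0084), while Rgs1 (-0.29 to 0.26), Rgs10 (-0.25 to 0.42), Rgs2 (-0.40 to 0.034), Rgs18 (-0.26 to 0.013) and Rgs19 (-0.048 to 0.086) took both. With the lowest 60% of probe sets dropped, Rgs13 was too dim to be tested, which left 0 members lower, and 1 receptor kinase was called.

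Over all probe sets 543 were higher and 407 lower. These counts were 381 and 256 with the Xist-high term, 355 and 200 without a variance trend, 328 and 220 with the covariate of other blood cell markers, 193 and 129 within Xist-high, and 62 and 55 within Xist-low arrays, where fewer arrays enter. Leaving out 1 array gave 283 to 1297 higher and 183 to 875 lower, the highest without wild-type array 2. Within Xist-low arrays 0 members were called in either direction.

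For the pathway lists, G protein subunits had 0 higher and 0 lower without a trend, with the covariate, with the replicate number as a block and within either Xist class. With the Xist-high term they had 0 higher, and the 1 lower was Gng12 and not Gna13. With no filter they had 0 lower. Effectors had 0 lower with the term, the covariate, no trend and within either class. Migration receptors had 0 lower under these settings and with no filter, 2 lower with the replicate block, and 0 higher within Xist-low arrays. Receptor kinases had 1 higher with the Xist-high term and 2 within Xist-high arrays and with the replicate block. With 1 array left out, the counts ranged over 0 to 2 higher and 0 to 1 lower for subunits, 0 to 1 lower for effectors, 2 to 3 higher and 0 to 3 lower for migration receptors, 0 to 2 higher for receptor kinases, 0 to 1 higher for other RGS domain genes, and were 1 higher and 1 lower for the 9 members throughout. The replicate block gave 690 and 478 probe sets and changed no call of a member. Where a count moved, the cause was not tested.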

Other observations

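The genes nearest to Rgs16 over the 8 arrays were looked at after its values were seen. They were Prc1, Racgap1 and Ncaph, which act in cell division, with root mean square differences of 0.083, 0.14 and 0.15 against 0.48 for Rgs16 itself. Prc1 read 259, 390, 213 and 225 in wild type and 306, 506, 475 and 498 on null arrays, so like Rgs16 it was higher on the 4 Xist-low arrays (390 to 506) than on the 4 Xist-high arrays (213 to 306). For Rgs1 the nearest gene was Samsn1, an adaptor of lymphocytes, at 0.091 against 0.27, and wild-type array 2 was the highest of the 8 for both.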
